A study of Mus musculus with 9 samples.

Results

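The Bcl2 family in the mature mouse egg is described here through 10 genes, taken by symbol from the 30153 genes with counts in this series. The choice covers the main roles in the mitochondrial route of cell death. Bcl2l10, Bcl2l1, Bcl2 and Mcl1 are pro-survival, Bax, Bak1 and Bok are pore-forming effectors, and Bbc3, Pmaip1 and Bcl2l11 are BH3-only initiators. All 10 symbols were found in the tables. RNA-seq was done on pools of oocytes at metaphase of the second meiotic division (MII), 3 libraries in each of the groups GFP High, GFP Low and RFP. Every pool came from females of 4 weeks of age, on a mixed genetic background, with the genotype Sycp3CreERT2/+; Rosa26nT-nG/+. They therefore carried both an inducible Cre recombinase expressed from the meiotic Sycp3 gene and a nuclear reporter that switches from red to green after recombination. No group lacked either allele. Superovulation used 5 IU PMSG and, 48 h on, 5 IU hCG, with collection at 13 h after hCG. Cumulus cells were removed with hyaluronidase, and the oocytes were hand-picked by their GFP and RFP signal. The pools of the GFP High group had 15, 15 and 16 oocytes, those of GFP Low 49, 52 and 57, and those of RFP 88, 87 and 100. The labels name no batch, and the tamoxifen schedule is not given in the sources used here.

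Proteins of this family meet at the outer mitochondrial membrane. Pro-survival members bind and hold back the effectors and the BH3-only proteins, and effectors that escape assemble into pores that release cytochrome c. Released cytochrome c binds Apaf1 and starts the caspase cascade. In oocytes of the follicle reserve, DNA damage acts through the kinases Chek2 and Csnk1a1 on TAp63, a product of Trp63, which turns on Bbc3 and Pmaip1. Bcl2l10, also called Diva or Boo, is a family member with strong expression in ovary and oocytes. An MII egg is transcriptionally silent, so its mRNAs were made during growth and are kept, adenylated or degraded during maturation.

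Because maturation lengthens the poly-A tail of some stored mRNAs through a short element near the 3′ end, and these libraries were captured on poly-dT beads, the 3′ ends of the members are shown first. The element was searched as TTTTAT or TTTTAAT in the last 100 bases of 1 GENCODE M21 transcript per gene, and the polyadenylation hexamer as AATAAA or ATTAAA in the last 50, both on the transcript strand only. The 30 bases that end with the hexamer are printed for the 5 members with the highest levels, on GRCm38, with element and hexamer in capitals.
Bcl2l10 (chr9:75351588-75351617, plus strand): catTTTTAATaacttcaaattcttAATAAA
Bcl2l11 (chr2:128162500-128162529, plus strand): tatgttcttaatgaaTTTTATataAATAAA
Bcl2l1 (chr2:152780689-152780718, minus strand): gtgaaggtgaaagtgcagttcagtAATAAA
Mcl1 (chr3:95663134-95663163, plus strand): aacttctgtttcttctgaagagaaAATAAA
Bax (chr7:45461718-45461747, minus strand): ggaatggtggcctggggaggcgccAATAAA
The Bcl2l10 transcript held 1 element, which began 21 bases before its hexamer. Bcl2l11 held 2, beginning 27 and 9 bases before the hexamer, of which the nearer is in the printed window. Bcl2l1, Mcl1, Bax, Bcl2, Bak1, Bok and Bbc3 had the hexamer and no match to the element in this window. Pmaip1 was not searched. Over 21808 transcripts of as many genes, 71.4% had the hexamer, 16.5% the element and 12.7% both. These matches are a description of the letters and say nothing on whether a tail was lengthened. The counts below measure RNA held by poly-dT, which depends on the tail as well as on the number of molecules.

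Library totals ran from 19381677 to 27746256 counts, so that 3 counts, taken as the limit of detection, stood for 0.108 to 0.155 CPM, edgeR's unit of counts scaled by library size. CPM values were further scaled by edgeR's TMM factors over the 9 libraries, and levels of different genes are compared only after division by the authors' gene length, as CPM per kilobase. All 11 oocyte markers, such as Zp3 and Gdf9, were above 3 counts in every library. GFP High libraries had fewer genes with 5 counts or more (13773 to 16006) than the other libraries (17041 to 17663). At 1 CPM or more the numbers overlapped, 12375 to 12951 genes for GFP High and 12635 to 12932 for the others. Cumulus and granulosa markers were present at low levels. Of the 14 on the list, 4 to 12 were above 3 counts by library, and their sum was 110 to 205 CPM for GFP High, 140 to 153 for GFP Low and 127 to 189 for RFP. Without Nr5a2 and Cyp19a1, which were left out after their high values in every library had been seen, 12 markers summed to 28.8, 2.24 and 3.87 CPM in GFP High 1, 2 and 3. The same sum was 30.2, 1.95 and 7.79 CPM in GFP Low and 9.40, 45.1 and 3.01 CPM in RFP. On these 12 markers GFP High 1, GFP Low 1 and RFP 2 were thus the highest of their groups. On all 14, GFP High 1 and RFP 2 still led, but GFP Low 3 (153 CPM) was above GFP Low 1 (147 CPM). Amh and Amhr2 had 0 counts in 8 of the 9 libraries each. Other markers of the list were higher, and among RFP libraries Tnfaip6 reached 249 counts, Ptx3 221, Inhba 188, Ptgs2 168 and Inha 144. Nothing in the labels says that replicates came from separate animals, so p-values measure only the spread between these pools. In pooled cells, fewer cells of a type and less RNA per cell cannot be told apart.

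Transcripts of the family were overwhelmingly those of Bcl2l10. Averaged over the 9 libraries it reached 988 CPM per kilobase, which ranked it 15 among 18483 protein-coding genes, and Bcl2l1 followed at 51.5, rank 977. Bax stood at 4.84, Bcl2l11 at 4.33 and Mcl1 at 1.33 CPM per kilobase. Pmaip1 came to 0.361, Bak1 to 0.0811, Bok to 0.0729, Bcl2 to 0.0588 and Bbc3 to 0.0304. The order was firm at its upper end. Bcl2l10 was 19.2-fold above Bcl2l1 and Bcl2l1 10.6-fold above Bax on this scale, in 9 of 9 libraries and with ranges that did not overlap. Bax and Bcl2l11 overlapped, Bax being higher in 6 of 9 libraries. Bcl2l11 was 3.26-fold above Mcl1 with no overlap. Mcl1 exceeded Pmaip1 in 8 of 9 libraries with overlapping ranges, and the neighbours below Pmaip1 overlapped throughout. Gene length enters each of these ratios. The authors' length is 4586 bp for Bcl2l1 and 8029 bp for Bcl2l11, while the single transcripts used for the 3′ ends have 2568 and 5036 bp.

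**Figure D1:**
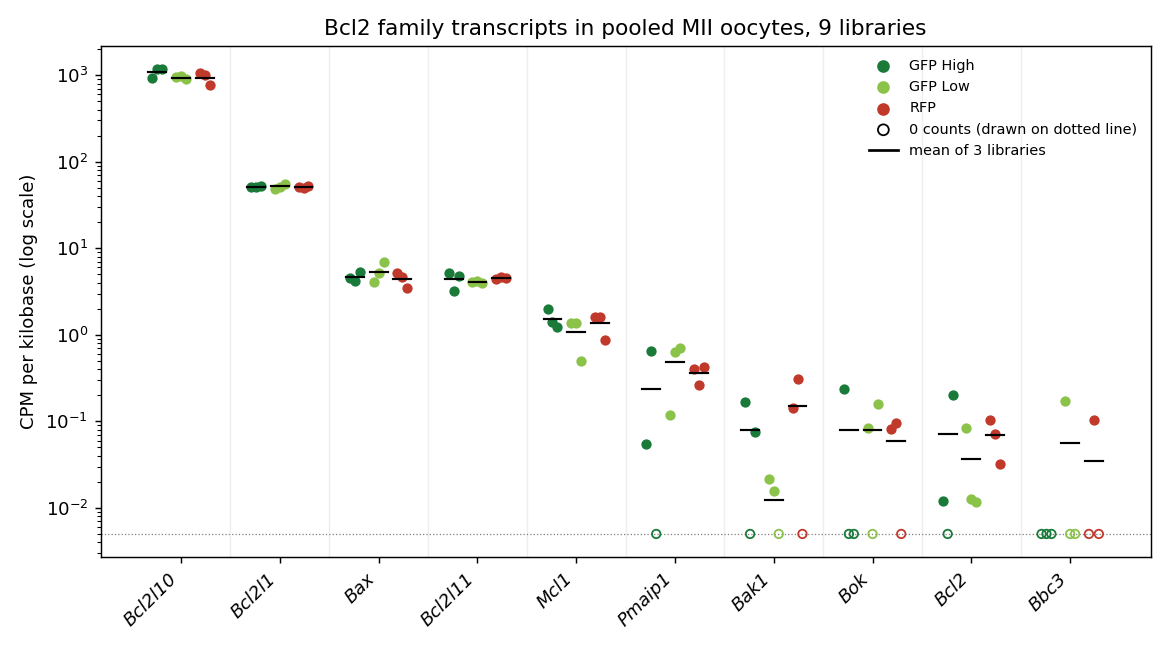
Level of each of the 10 genes in CPM per kilobase of gene length (log axis), 1 point per library, coloured by group, with group means as bars and libraries at 0 counts as open circles on the dotted line. Bcl2l10 lies 19.2-fold above Bcl2l1 on average, and the 5 genes from Pmaip1 to Bbc3 each have libraries at 0 counts.

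Summed by role, the pro-survival genes held 99.2% ± 0.189 of the 10 genes' level per kilobase for GFP High, 99.0% ± 0.191 for GFP Low and 99.0% ± 0.0499 for RFP (SD, n = 3). Bcl2l10 alone held 94.5% ± 0.788, 93.7% ± 0.641 and 93.7% ± 1.04 in the same order. The other pro-survival members, Bcl2l1, Bcl2 and Mcl1, together held 4.65% ± 0.610, 5.32% ± 0.451 and 5.37% ± 0.991. Effectors held 0.425% ± 0.0830, 0.551% ± 0.164 and 0.463% ± 0.0358, and BH3-only genes 0.408% ± 0.108, 0.463% ± 0.0291 and 0.502% ± 0.0853. Effector and BH3-only shares overlapped between libraries. The shares cover the 10 members alone and depend on that choice, so BH3-only genes outside them, such as Bik, are not in the sum. Over the 9 libraries Bik alone averaged 4.67 CPM per kilobase, beside 4.72 for the BH3-only members summed. These are shares of RNA, and protein was not measured.

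Bcl2l10 (ENSMUSG00000032191, chromosome 9, 75347758 to 75351632, plus strand, mm10) encodes an oocyte-rich protein that is counted here as pro-survival, although both pro-survival and pro-death activity have been reported for the mouse protein. Its counts were 30837, 35205 and 31831 in GFP High 1, 2 and 3, or 1126, 1432 and 1431 CPM. GFP Low 1, 2 and 3 had 22292, 31075 and 30258 counts, or 1149, 1186 and 1091 CPM. RFP 1, 2 and 3 had 34117, 27718 and 25111 counts, or 1288, 1216 and 932 CPM. GFP High 2 and 3 were the highest libraries and RFP 3 the lowest, while GFP High 1 lay within the range of GFP Low. Group means were 1329 ± 176, 1142 ± 48.2 and 1145 ± 188 CPM (SD, n = 3). The spread was wide for a gene of this level. Its coefficient of variation was 13.3% in GFP High and 16.4% in RFP, where the median of the 234 genes within 2-fold of its level was 7.15% and 6.75%. In GFP Low it was 4.22% beside a median of 4.47%.

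Bcl2l1 (ENSMUSG00000007659, chromosome 2, 152780668 to 152831728, minus strand) encodes Bcl-xL, the other abundant pro-survival transcript. Its counts were 6376, 5789 and 5302 for GFP High, 4317, 6213 and 7076 for GFP Low and 6172, 5254 and 6532 for RFP. Scaled for depth these gave 235.5 ± 2.75, 238.3 ± 16.3 and 235.3 ± 6.24 CPM (SD, n = 3). The 9 libraries ran from 223 to 255 CPM, both ends of that range being GFP Low. Its coefficient of variation was 1.17% for GFP High, 6.84% for GFP Low and 2.65% for RFP, beside medians of 9.67%, 5.62% and 7.37% over the 1625 genes within 2-fold of its level. Its spread was below their median for GFP High and RFP and above it for GFP Low. Per kilobase, Bcl2l10 exceeded Bcl2l1 21.2 ± 2.62 times in GFP High, 18.1 ± 1.78 times in GFP Low and 18.4 ± 3.41 times in RFP.

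**Figure D2:**
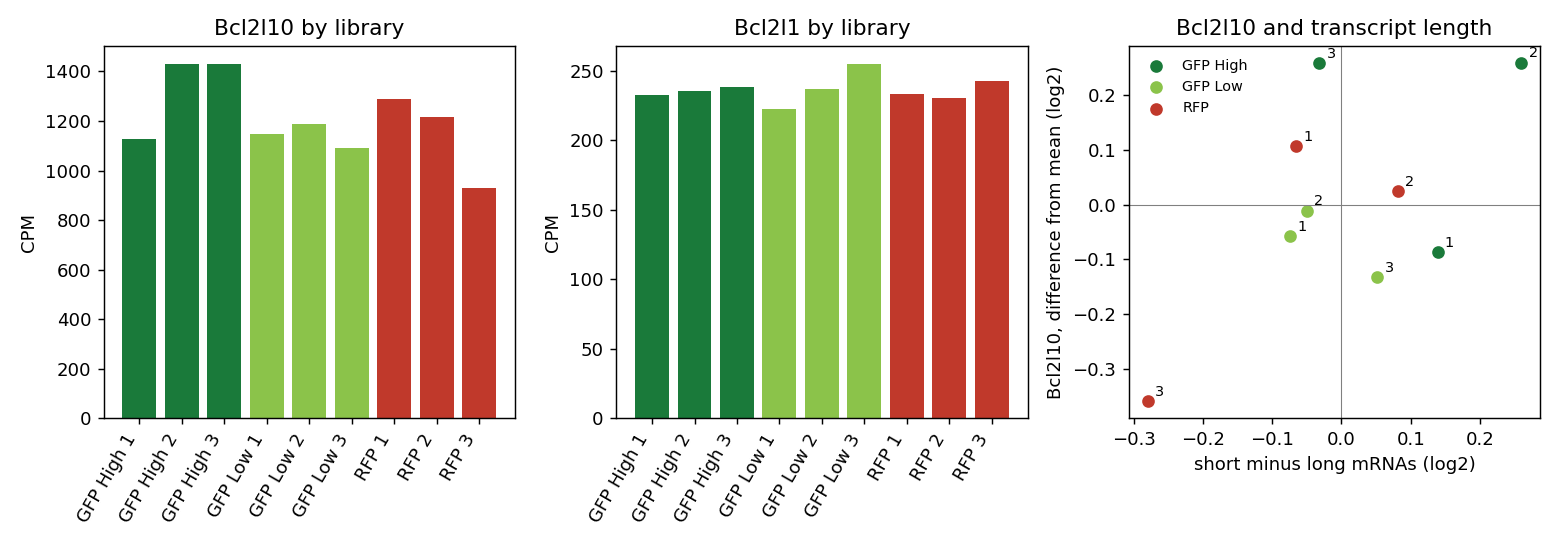
Bcl2l10 (left) and Bcl2l1 (middle) in CPM, 1 bar per library. At right is the log2 deviation of Bcl2l10 from its 9-library mean, 1 numbered point per library. It is set against the median log2 deviation of short minus long genes, split by the authors' gene length though labelled there as mRNAs and transcript length. Bcl2l10 runs from 932 to 1432 CPM and Bcl2l1 from 223 to 255 CPM.

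Mcl1 (ENSMUSG00000038612, chromosome 3, 95658788 to 95663176, plus strand), a short-lived pro-survival protein, was lower by far. Its counts were 186, 118 and 94 for GFP High, 90, 124 and 47 for GFP Low and 146, 126 and 80 for RFP. That amounted to 5.27 ± 1.35, 3.69 ± 1.73 and 4.67 ± 1.47 CPM (SD, n = 3). The third replicate was the lowest in each group, and the groups overlapped. Bcl2 (ENSMUSG00000057329, chromosome 1, 106538178 to 106714274, minus strand), the founding member of the family, was near the limit of detection. It had 3, 0 and 41 counts for GFP High, 15, 3 and 3 for GFP Low and 25, 15 and 8 for RFP. GFP High 3 had the most counts, and 4 of 9 libraries were at or under 3. An antisense gene, D630008O14Rik, overlaps Bcl2 and had at most 7 counts.

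Bax (ENSMUSG00000003873, chromosome 7, 45461697 to 45466898, minus strand) was the one effector above the detection limit in every library. Its counts were 197, 162 and 185 for GFP High, 125, 213 and 302 for GFP Low and 219, 167 and 148 for RFP. In CPM it had 7.36 ± 0.876, 8.49 ± 2.24 and 7.03 ± 1.41 (SD, n = 3), with GFP Low 3 highest and RFP 3 lowest. The gene model Gm45808 shares 915 bp with it on the same strand. Bak1 (ENSMUSG00000057789, chromosome 17, 27019810 to 27029009, minus strand), whose protein works in parallel with Bax, had 11, 0 and 4 counts for GFP High, 1, 1 and 0 for GFP Low and 9, 17 and 0 for RFP. Bok (ENSMUSG00000026278, chromosome 1, 93685660 to 93695764, plus strand) had 12, 0 and 0 counts for GFP High, 3, 0 and 8 for GFP Low and 4, 4 and 0 for RFP. Bak1 and Bok were each at or under 3 counts in 5 of 9 libraries. Bak1 lies within Ggnbp1 on the opposite strand, which had up to 127 counts, and the strand of the counting is not given in the sources used here.

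Bcl2l11 (ENSMUSG00000027381, chromosome 2, 128126038 to 128162547, plus strand) encodes Bim and was the highest of the BH3-only members. Bik, a BH3-only gene outside the members, averaged 4.67 CPM per kilobase over the 9 libraries, beside 4.33 for Bcl2l11. Bcl2l11 is described first. Its counts were 1130, 640 and 846 in GFP High, or 41.3, 26.0 and 38.0 CPM. GFP Low had 629, 880 and 893 counts, or 32.4, 33.6 and 32.2 CPM, and RFP 941, 861 and 976 counts, or 35.5, 37.8 and 36.2 CPM. GFP High held both the highest and the lowest library, while GFP Low and RFP were tight, with coefficients of variation of 2.30% and 3.17% beside medians of 9.84% and 10.4% for 3402 genes of like level. Pmaip1 (ENSMUSG00000024521, chromosome 18, 66458604 to 66465550, plus strand), which encodes Noxa, had 4, 42 and 0 counts for GFP High, 6, 44 and 52 for GFP Low and 28, 16 and 30 for RFP. Bbc3 (ENSMUSG00000002083, chromosome 7, 16308393 to 16318205, plus strand), which encodes Puma, had 0 counts in 7 of 9 libraries, 7 in GFP Low 1 and 5 in RFP 2.

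The libraries with Bbc3 counts, GFP Low 1 and RFP 2, were also the highest of their groups for the 12 cumulus and granulosa markers, at 30.2 and 45.1 CPM. GFP High 1, at 28.8 CPM of those markers, had the most Bok counts and the most Bak1 counts of its group and no Bbc3 count. Bak1 was highest of RFP in RFP 2 (17 counts), and Bcl2 highest of GFP Low in GFP Low 1 (15). Elsewhere the highest of a group was another library: GFP High 3 (41) and RFP 1 (25) for Bcl2, and GFP Low 3 (8) for Bok. For Pmaip1 these were GFP High 2 (42), GFP Low 3 (52) and RFP 3 (30). Whether RNA of other cells had a part in these few counts was not tested. Each library at 0 counts still allowed a level of up to 0.108 to 0.155 CPM, a limit for counting error only.

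**Figure D3:**
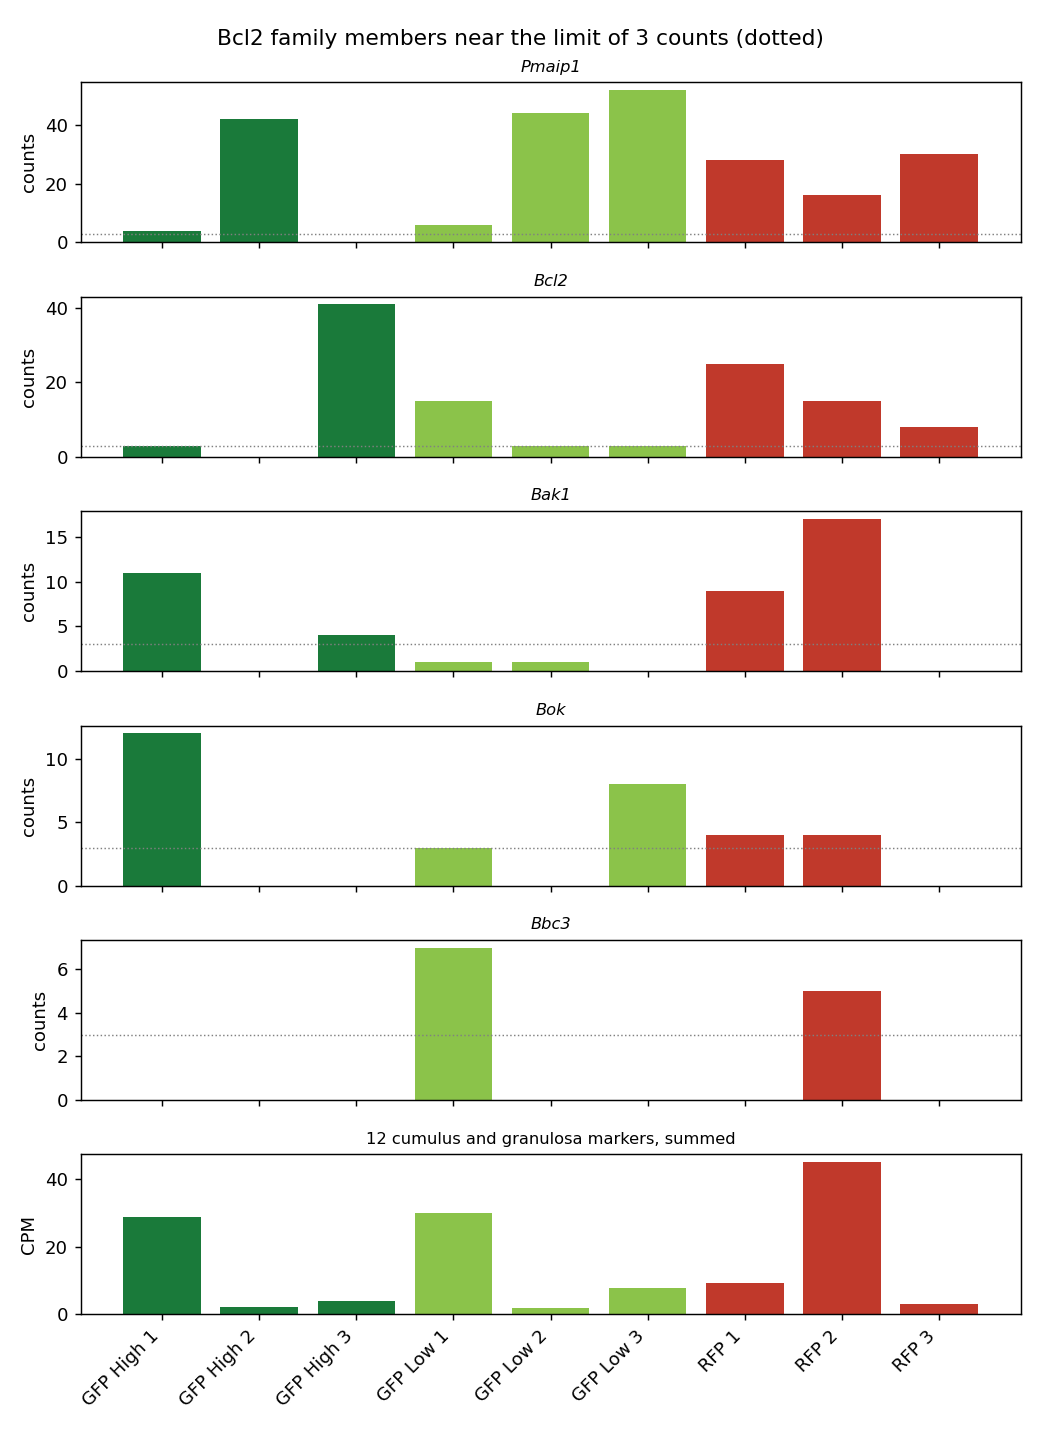
Read counts of Pmaip1, Bcl2, Bak1, Bok and Bbc3 in each of the 9 libraries, with the limit of 3 counts dotted, above the summed CPM of 12 cumulus and granulosa markers. Bbc3 has bars in GFP Low 1 (7 counts) and RFP 2 (5 counts) alone, and the marker sum is 30.2 and 45.1 CPM there.

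The groups were compared pair by pair to ask whether these transcripts follow the reporter signal of the eggs. The test was edgeR's quasi-likelihood test on 6 libraries with Benjamini-Hochberg adjustment over all genes. A filter on low counts let through 7 members in both comparisons with RFP, 6 in GFP High against GFP Low and 7 in the joint test of the 3 groups. Bak1, Bok and Bbc3 passed it nowhere, and Bcl2 failed it in GFP High against GFP Low. No member passed an adjusted p of 0.05: 0 of 7 in GFP High against RFP (0.0135% of all genes tested did), 0 of 7 in GFP Low against RFP (0.0197%), 0 of 6 in GFP High against GFP Low (0%) and 0 of 7 in the joint test (0.0126%). DESeq2 and limma-voom also called 0 members in each. At an unadjusted p under 0.05 there were 0 of 7 members in GFP High against RFP (4.09% of all genes), 0 of 7 in GFP Low against RFP (2.62%), 1 of 6 in GFP High against GFP Low (3.77%) and 0 of 7 jointly (4.65%). The median log2 fold change of the members tested was 0.04, -0.00 and 0.04 in the pairs in this order, beside -0.01, -0.00 and -0.00 for all genes. The pairs share libraries, so their values are not independent of each other. Pool sizes did not overlap between groups, so pool size and group cannot be told apart in any pair.

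The member with an unadjusted p under 0.05 was Bcl2l10. GFP High against GFP Low gave it a log2 fold change of 0.22 (SE 0.09, 95% interval 0.01 to 0.43, edgeR adjusted p = 0.998), a ratio of 1.17, with replicates that overlapped. The unadjusted p was 0.0382 in edgeR. Against RFP, GFP High gave 0.22 (SE 0.13, interval -0.08 to 0.52, edgeR adjusted p = 0.997), and GFP Low gave -0.00 (interval -0.23 to 0.22, edgeR adjusted p = 1.00). The value for GFP High against RFP was 0.08 without RFP 3 and 0.32 without GFP High 1. Without GFP High 2 and without GFP High 3, the value against GFP Low was 0.16 each time. The 11 oocyte markers had a median log2 fold change of 0.15 in the first of these pairs, with 10 of 11 above 0, and of 0.12 against RFP, with 9 of 11 above 0. In edgeR 4 and 3 of them had an unadjusted p under 0.05. Their part in the Bcl2l10 values was not tested. In the authors' deposited table the smallest adjusted p-value of any member was 0.742, again for Bcl2l10 in GFP High against GFP Low.

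Bcl2l1 had the narrowest intervals of the family. Its log2 fold change was 0.01 in GFP High against RFP (interval -0.19 to 0.20), 0.02 in GFP Low against RFP (-0.15 to 0.19) and -0.02 in GFP High against GFP Low (-0.21 to 0.17). A difference of more than 1.15-fold either way in GFP High against RFP lay outside the interval. The sign in GFP High against RFP was negative without TMM factors. Bcl2l11 was the one member whose replicates did not overlap in any pair, in GFP Low against RFP, where 7.68% of all genes tested did the same. Its log2 fold change there was -0.16 (SE 0.12, interval -0.40 to 0.09, edgeR adjusted p = 1.00). Comparing GFP High with RFP and with GFP Low, 0 members had replicates apart, where 11.9% and 11.5% of all genes tested had.

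The other members tested left wide ranges. For Bax the log2 fold change was 0.07 in GFP High against RFP (interval -0.65 to 0.80), 0.28 in GFP Low against RFP (-0.27 to 0.82) and -0.20 in GFP High against GFP Low (-0.93 to 0.52). Mcl1 had 0.18 (-0.77 to 1.13), -0.34 (-1.20 to 0.52) and 0.52 (-0.61 to 1.64) in the same order. As a ratio, the Bax interval in GFP High against RFP ran from 0.636 to 1.74, so ratios within those bounds were not excluded. Pmaip1 had -0.62 (-3.94 to 2.70), 0.44 (-0.97 to 1.84) and -1.06 (-4.46 to 2.34). Both Pmaip1 values of GFP High depended on GFP High 2, without which they were -3.57 against RFP and -4.01 against GFP Low. They were -0.05 and -0.48 without GFP High 3. The Pmaip1 value of GFP Low against RFP ran from 0.07 without GFP Low 3 to 0.89 without GFP Low 1. Bcl2 had 0.04 (-3.55 to 3.63) in GFP High against RFP and -0.97 (-3.01 to 1.07) in GFP Low against RFP. The Bcl2 value in GFP High rested on GFP High 3, without which it was -3.39. The value for GFP Low was -2.45 without GFP Low 1 and -0.54 without GFP Low 3.

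**Figure D4:**
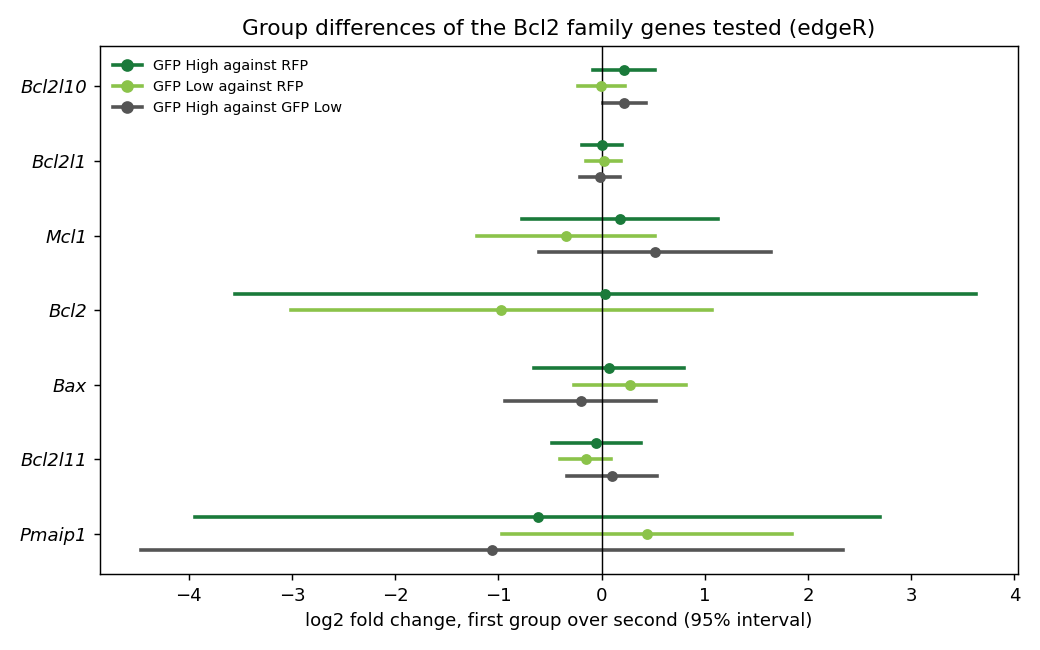
Log2 fold change of the 7 members tested (points) with 95% intervals (lines) from edgeR for the 3 pairs of groups, each pair as first group over second. Within each pair, intervals of Bcl2l10 and Bcl2l1 are the narrowest, and those of Pmaip1 and, where tested, Bcl2 the widest. Among the intervals only that of Bcl2l10 in GFP High against GFP Low lies wholly on one side of 0, at 0.01 to 0.43.

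How Bcl2l10 varied among libraries was described further by the genes most like it. Among 7709 genes with a mean of 10 CPM or more, those whose log2(CPM + 1) followed Bcl2l10 most closely over the 9 libraries were Smagp (Pearson r = 0.966, Spearman rho = 0.933), Tesc (r = 0.954, rho = 0.917) and Cpa1 (r = 0.943, rho = 1). All points of such a correlation share library, depth scaling and group, and no test was made. Bcl2l1 and Bcl2l11 did not follow it, with r of -0.265 and -0.301. Smagp, Tesc and Cpa1 have gene lengths of 1464, 1591 and 1750 bp in the authors' tables, and Bcl2l10 has 1220 bp. The 119 genes with r over 0.8 had a median length of 2791 bp, beside 4667 bp for the genes compared.

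Levels of protein-coding genes of short and long length, by the authors' gene length, were therefore set beside Bcl2l10. The measure was the median log2 deviation of 415 genes under 1500 bp minus that of 3558 genes over 5000 bp. It was 0.14, 0.26 and -0.03 for GFP High, -0.07, -0.05 and 0.05 for GFP Low and -0.07, 0.08 and -0.28 for RFP. The deviation of Bcl2l10 from its own mean was -0.09, 0.26 and 0.26, then -0.06, -0.01 and -0.13, then 0.11, 0.02 and -0.36. GFP High 2 was highest and RFP 3 lowest on both measures, while GFP High 3 was high for Bcl2l10 alone. The part of gene or transcript length in the Bcl2l10 differences was not tested.

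Genes around the family were taken from 4 lists: 15 other Bcl2 family genes, 16 genes of caspases and the apoptosome, 7 of the oocyte checkpoint and 9 partners of the family. Of the 38 genes tested in each pair, 0 passed an adjusted p of 0.05 in edgeR, and 0 did so in DESeq2 or limma-voom. At an unadjusted p under 0.05 in edgeR there were Bik, Birc2, Birc5, Casp6 and Tpt1 in GFP High against RFP, Birc3 in GFP Low against RFP, and Birc2, Casp6 and Tpt1 in GFP High against GFP Low. These are 5, 1 and 3 of 38 genes, beside 4.09%, 2.62% and 3.77% of all genes tested. Of the other family members, 7 of 15 were tested in each pair, with 4 higher and 3 lower every time. Among caspase and apoptosome genes 15 of 16 were tested, 7 higher and 8 lower in GFP High against RFP, 9 and 6 in GFP Low against RFP, and 8 and 7 when GFP High was set against GFP Low. The 7 checkpoint genes split into 2 and 5, 3 and 4, and 2 and 5 in this order, and the 9 partners into 5 and 4, 4 and 5, and 3 and 6. List medians ran from -0.07 to 0.09 on the log2 scale, beside -0.01 to -0.00 for all genes.

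In RFP, the highest other family members per kilobase were Bnip3l (39.3 ± 2.51 CPM per kilobase) and Bnip3 (11.2 ± 1.27), which act in mitophagy, and Bcl2l13 (12.1 ± 1.54), a relative at the mitochondrial membrane. Birc5 (174 ± 7.49), or survivin, is a subunit of the chromosomal passenger complex as well as an IAP family protein, and Birc3 (101 ± 6.40) is an IAP ubiquitin ligase. Cycs, the gene of cytochrome c, stood at 46.6 ± 4.86 CPM per kilobase. Apaf1, which cytochrome c binds, was at 0.867 ± 0.105 and Casp9 at 0.620 ± 0.113. Of the same list, Casp8 was higher, at 9.73 ± 1.31, and Casp6 lower, at 0.179 ± 0.0497. Apaf1, Casp9 and Casp8 were named after their values were seen. In the checkpoint list Foxo3 (108 ± 16.1), a transcription factor that holds primordial follicles dormant, the checkpoint kinase Chek1 (70.8 ± 3.74) and Csnk1a1 (65.4 ± 2.12) led, while Trp63 was at 6.16 ± 0.758 and Trp53 at 4.22 ± 1.06. Tpt1 (200 ± 12.3), a partner of Mcl1 and Bcl-xL, led the partners, before Usp9x (64.3 ± 7.34), a deubiquitinase of Mcl1, and Vdac3 (38.3 ± 1.84), a channel of the outer mitochondrial membrane. Errors are SD over 3 libraries.

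**Figure D5:**
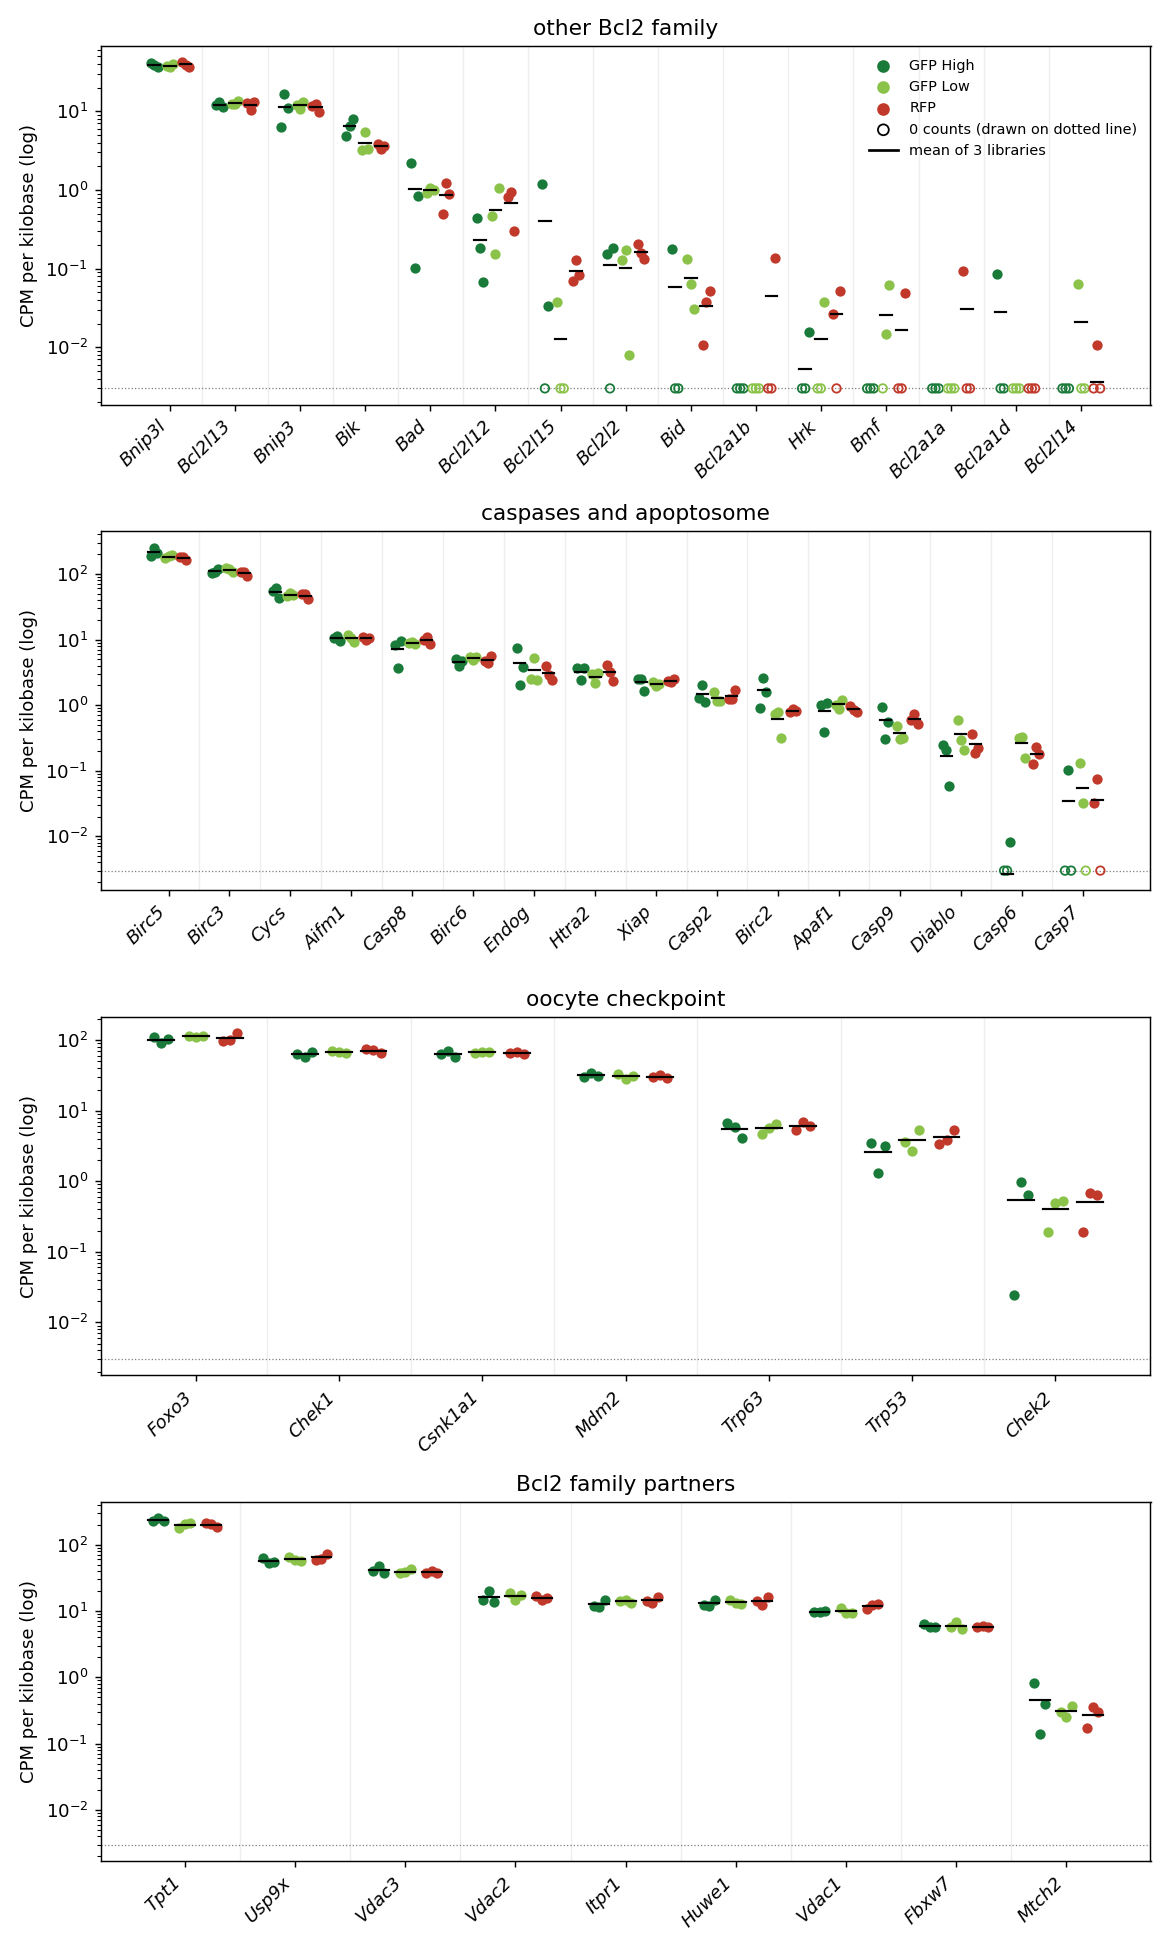
Levels in CPM per kilobase (log axes) of the genes of the 4 lists, 1 point per library, coloured by group, with group means as bars and libraries at 0 counts as open circles on the dotted line. Most genes overlap between groups, and Casp6 has 2 GFP High libraries at 0 and the remaining one at 1 count.

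Casp6, an executioner caspase, had the smallest p of the 4 lists. It had 0, 0 and 1 counts for GFP High, 34, 48 and 24 for GFP Low and 19, 29 and 27 for RFP. All GFP High libraries were below all others, and none exceeded 3 counts. With counts summed over the group, RFP exceeded GFP High 73.4 times (exact binomial interval 12.8 to 2939) and GFP Low exceeded it 107 times (18.9 to 4281), intervals that cover counting error only. In edgeR the unadjusted p was 0.00738 against RFP and 0.00297 against GFP Low, and the adjusted p 0.997 and 0.998. The authors' deposited table gives adjusted p-values of 0.142 and 0.0597. The GFP High pools were the smallest, at 15 to 16 oocytes, and had fewer genes at 5 counts or more than the others (13773 to 16006 beside 17041 to 17663). Numbers of genes at 1 CPM or more overlapped (12375 to 12951 beside 12635 to 12932). Pool sizes did not overlap between groups, so the part of pool size in the Casp6 counts cannot be told apart from that of group. The part of gene detection was not tested.

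The remaining genes with the smallest p of a list did not pass the adjusted threshold. Bik, a BH3-only gene, had 7.63, 10.4 and 12.8 CPM in the GFP High libraries and 6.15, 5.27 and 5.68 in those of RFP. These did not overlap, as was so for 11.9% of all genes tested in this pair. On the log2 scale the Bik difference was 0.85, with an SE of 0.32 and an adjusted p of 0.997 in edgeR (unadjusted 0.0232). Against GFP Low, at 6.34 ± 1.99 CPM, it was 0.70, with replicates that overlapped. Tpt1 came to 560 ± 26.8 CPM for GFP High, 472 ± 43.8 for GFP Low and 477 ± 29.2 for RFP (SD, n = 3), with log2 fold changes of 0.24 against RFP and 0.25 against GFP Low (SE 0.09 each). Birc2, an IAP ubiquitin ligase related to Birc3 and named after its p was seen, had 7.86 ± 3.96, 2.81 ± 1.19 and 3.76 ± 0.182 CPM in that order of groups. Birc5, named for its level, had 733 ± 113, 626 ± 38.6 and 592 ± 25.5 CPM. Trp53 had a log2 fold change of -0.67 (SE 0.37) in GFP High against RFP, and Foxo3 -0.14 (SE 0.08) in GFP High against GFP Low. In GFP Low against RFP the genes were Birc3 (0.20, SE 0.08), Vdac1, another outer membrane channel (-0.27, SE 0.14), Trp63 (-0.13, SE 0.14) and the pro-survival Bcl2l2 (-0.69, SE 0.87).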

How the data were processed

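Each pair of groups has a table deposited by the authors (26775, 29099 and 26570 genes), with read counts, a normalised signal, FPKM, and their own log2 fold change and p-value per gene. The submitters' processing notes name fastp, HISAT2 2.0.5, featureCounts 1.5.0-p3, DESeq2 1.20.0 and mm10, without roles. Deposited counts were joined into 30153 genes by 9 libraries, 178 genes that a table lacked being set to 0. Per the file headers the authors' normalised signal and FPKM are per library, and neither entered a test, FPKM serving 1 alternative. Of the identifiers, 30134 were found in GENCODE M21 (GRCm38), and coordinates are those of the tables. For Pmaip1 these differ from M21.

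Pairs were tested in edgeR 4.0.16 (R 4.3.3) with filterByExpr, TMM and the quasi-likelihood test. The log2 intervals are 95% intervals from its F statistic. Fits were tested on simulated data. Alternatives used DESeq2 1.42.0, limma-voom (limma 3.58.1), other scalings, filters and libraries. The reads carry no molecular identifiers. Hba-a1, Lyz2 and Hbb-bs of a marker list are not analysed here. A gene of the caspase list is not reported here, and the list's counts are given without it.

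Named were all 10 members. Of 4 lists, genes past the adjusted threshold, the 3 highest per kilobase in RFP and the smallest p in each pair were named, and for Bcl2l10 the 3 most correlated genes. Members and lists were chosen with earlier results of these data known.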

Additional observations from a re-analysis of the deposited data

How the results depend on the processing

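In each of the settings run, 0 members passed the threshold. The Bcl2l10 share of the family stayed within 1 SD, but this outcome was fixed in advance and is no test of the share. Leaving out 1 of 3 libraries cannot move a group mean by 1 SD, and filters and test tools do not enter the share. The number of genes past the threshold in GFP High against RFP went from 2 to 12 with DESeq2, 1 with limma-voom, 16 with no filter, 4 with the replicate block, and 0 without GFP High 1, GFP Low 1 and RFP 2, a setting chosen after seeing the data. For GFP Low against RFP it went from 3 to 10 with DESeq2, 1 with limma-voom and 34 with no filter, and for GFP High against GFP Low from 0 to 4 with DESeq2 and 16 with no filter. The joint test of the 3 groups went from 2 to 97 with the DESeq2 likelihood-ratio test, 70 with no filter, 1 with limma-voom and 0 without those 3 libraries, and gave 2 to 3 when 1 library was left out. In the pairs, leaving out 1 library gave 0 to 2, 2 to 3 and 0 to 1 genes in this order, where the value of 0 for GFP High against RFP came without RFP 2, RFP 3, GFP High 1 or GFP High 3. Without GFP High 3, 1 gene passed against GFP Low. The causes were not tested.

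Of 503 alternative log2 fold changes for 32 results, 474 kept their sign and side of the threshold and 29, in 12 results, changed sign. Bcl2l1 in GFP High against RFP became -0.0075 without TMM factors, -0.0062 with no filter and -0.0051 without the 3 libraries named above. Bcl2 in the same pair became -1.87 with limma-voom, -0.080 with bias-adjusted deviances and -2.22 with the replicate block. Bcl2l10 in GFP Low against RFP became 0.012 with limma-voom and 0.011 with the replicate block, and 0.041 without those 3 libraries, where Trp63 became 0.073 and Bcl2l11 in GFP High against GFP Low -0.042. When 1 library was left out, values in GFP High against RFP ran from -0.010 to 0.021 for Bcl2l1, -3.39 to 0.61 for Bcl2, -0.068 to 0.32 for Mcl1, -0.084 to 0.20 for Bax and -0.19 to 0.12 for Bcl2l11. GFP Low against RFP gave -0.13 to 0.088 for Bcl2l10, -0.034 to 0.068 for Bcl2l1 and -0.59 to 0.0063 for Mcl1. GFP High against GFP Low gave -0.066 to 0.031 for Bcl2l1, -0.37 to 0.0098 for Bax and -0.037 to 0.27 for Bcl2l11. The smallest adjusted p under any alternative was 0.0598, for Casp6.

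Whether replicate numbers pair the libraries was not settled. Deviations of same-numbered libraries correlated at -0.0614 to 0.00859, -0.106 to 0.0944 and -0.0447 to 0.120 in the pairs of groups. These correlations run over all genes past the filter, so a pairing that affects few genes would hardly change them. Pmaip1, Bcl2, Bak1, Bok and Bbc3 rest on few counts, so depth limits their levels.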
